A study of Mus musculus with 14 samples.

Results

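CAG-GFP Sham, the group without seizures that serves as the control in this study, was described here against the other 3 groups pooled. It held 3 of the 14 RNA libraries, and the other 11 libraries formed the second arm. Of 43346 genes counted, 18676 had enough counts for a comparison of the arms. Each library was made from 800 to 1000 live GFP+ cells that the labels call abGCs, sorted from the hippocampus of wild-type C57BL/6 mice at day 14, using SMART-Seq v4, which amplifies whole cDNAs from very little RNA. The 3 control libraries, labelled CAG-GFP Sham + CNO, came from cells with GFP under the CAG promoter, a strong promoter that is active in many cell types. CNO, clozapine-N-oxide, is the ligand of the designer receptors called DREADDs, and it was given in all 4 groups, so the control was not free of treatment and an effect of CNO itself cannot be told apart here. CAG-GFP Pilo (n = 4) had the same GFP and seizures after pilocarpine, a muscarinic agonist given at 300 mg/kg. DREADD Sham (n = 4) carried the designer receptor without seizures, and DREADD Pilo (n = 3) carried it with pilocarpine seizures and is labelled as silenced. The treatment text is the same for every sample and also names scopolamine methyl nitrate, terbutaline and diazepam, and it does not say which of these the sham mice received. How the cells were made to express GFP, and whether each library came from its own mice, is not given in the sources used here, so the spread between libraries may be technical.

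The choice of this control against the pooled rest, and of the 5 genes that mark it (Gstm1, Mt1, Cst3, Cpe and Fabp7), rested on values from these same libraries. Differences between the control and the rest are therefore given as descriptions. Where edgeR calls of this contrast are counted below, they too are descriptions and are not read as a test. A gene is said to lie wholly above or below when all 3 control libraries were higher, or lower, than all 11 others. The one test that did not use this contrast asked whether genes differed among the 3 other groups, with the control left out.

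Astrocytes are the glial cells that clear glutamate and potassium from around synapses, exchange metabolites through gap junctions and supply neurons with lipids and antioxidants. Radial glia-like stem cells of the dentate gyrus share many of their genes, among them Slc1a3, Fabp7 and Glul. Granule cells, which these stem cells produce in adult life, are defined by the transcription factor Prox1, and the newly born ones by Neurod1 and the microtubule protein Dcx.

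The control libraries were even in depth, with 27965232 to 28432365 counts and 14599 to 15462 genes detected, inside the range of 10613291 to 38614639 counts and 9372 to 20863 genes over the others. Pseudogenes took 0.117% to 0.2% of counts in 7 libraries, called library set 1 here, and 4.33% to 8.12% in the remaining 7, library set 2. All 3 control libraries belonged to set 1, with DREADD Sham 1 and 2 and libraries 3 and 4 of CAG-GFP Pilo, and the split followed the style of the library names in the labels. What separates the sets is not given in the sources used here, so the fold against the 4 others of set 1 is also given where it moves a printed fold by over 1.5 times. Across genes, the libraries most like the control were CAG-GFP Pilo 3 (mean r = 0.81 of log2 levels with the 3 control libraries), DREADD Sham 2 (0.804) and DREADD Sham 1 (0.773), all of set 1, and the others ran from 0.556 to 0.648. These correlations are across genes, which are not independent replicates.

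The 5 marking genes were all far higher in the control. Levels are CPM, counts scaled to a common library size by each library's total and its TMM factor. Gstm1 (ENSMUSG00000058135.8, chromosome 3, 108012255 to 108017973, GRCm38), a glutathione transferase, stood at 8916, 8363 and 9492 CPM in CAG-GFP Sham 1 to 3, against a lowest value of 58.3, a median of 199 and a highest of 707 CPM over the other 11. The lowest control library was 11.8 times the highest other one, DREADD Sham 2. The control mean of 8924 ± 564 CPM (SD, n = 3) was 36.6-fold that of the rest, and the fitted log2 difference was 5.19 ± 0.52 (SE). Mt1 (chromosome 8, 94179082 to 94180327), a metallothionein that binds zinc and copper, stood at 16931, 15990 and 19353 CPM, against 99 to 1010 CPM elsewhere with a median of 526, a 35.3-fold difference in means.

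Cst3 (chromosome 2, 148871722 to 148875692) encodes cystatin C, a secreted inhibitor of cysteine proteases. It stood at 85312, 88454 and 105090 CPM in the control, and at 3216 to 15241 CPM in the others (median 6898), 10.1-fold lower on average. Cpe, which encodes carboxypeptidase E, an enzyme that trims prohormones, stood at 17435, 17190 and 18756 CPM against 310 to 1925 CPM (median 676), a 21.8-fold difference. Fabp7, a lipid-binding protein of radial glia, stood at 2000, 2068 and 2478 CPM against 41.2 to 441 CPM (median 119), a 12.8-fold difference. For each of these 5 genes every control library lay above all 11 others. Against the 4 others of set 1 the folds were 29.95 for Gstm1, 39.9 for Mt1, 14.4 for Cst3, 29.5 for Cpe and 11.7 for Fabp7.

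Over all genes tested, 1332 (7.13%) lay wholly above the other libraries in the control and 279 (1.49%) wholly below. edgeR's quasi-likelihood fit of the arms called 311 genes higher (1.67%) and 76 lower (0.407%) in the control at an adjusted p under 0.05, of which 310 and 55 lay wholly apart. These calls depended on single libraries. Leaving out CAG-GFP Sham 1, 2 or 3 left 87, 98 or 90 called higher and 12, 13 or 11 called lower, while without CAG-GFP Pilo 4 there were 557 and 264, and without DREADD Pilo 3 there were 480 and 196. The called lower genes were also 40 to 47 without any 1 of CAG-GFP Pilo 1 and 2, DREADD Sham 4 and DREADD Pilo 1 and 2. Genes wholly below numbered 448 without CAG-GFP Sham 2, 516 without CAG-GFP Pilo 4 and 468 without DREADD Pilo 3. Since the arms were chosen from these values, nothing is read from these shares, and they serve as the background for the counts of gene lists below. With total counts in place of TMM factors every log2 difference between control and rest shifted by -0.65, and 687 genes lay wholly above and 608 wholly below. Against the 4 others of set 1 the counts were 2612 (14%) and 1527 (8.18%), as fewer libraries need to be cleared.

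**Figure D1:**
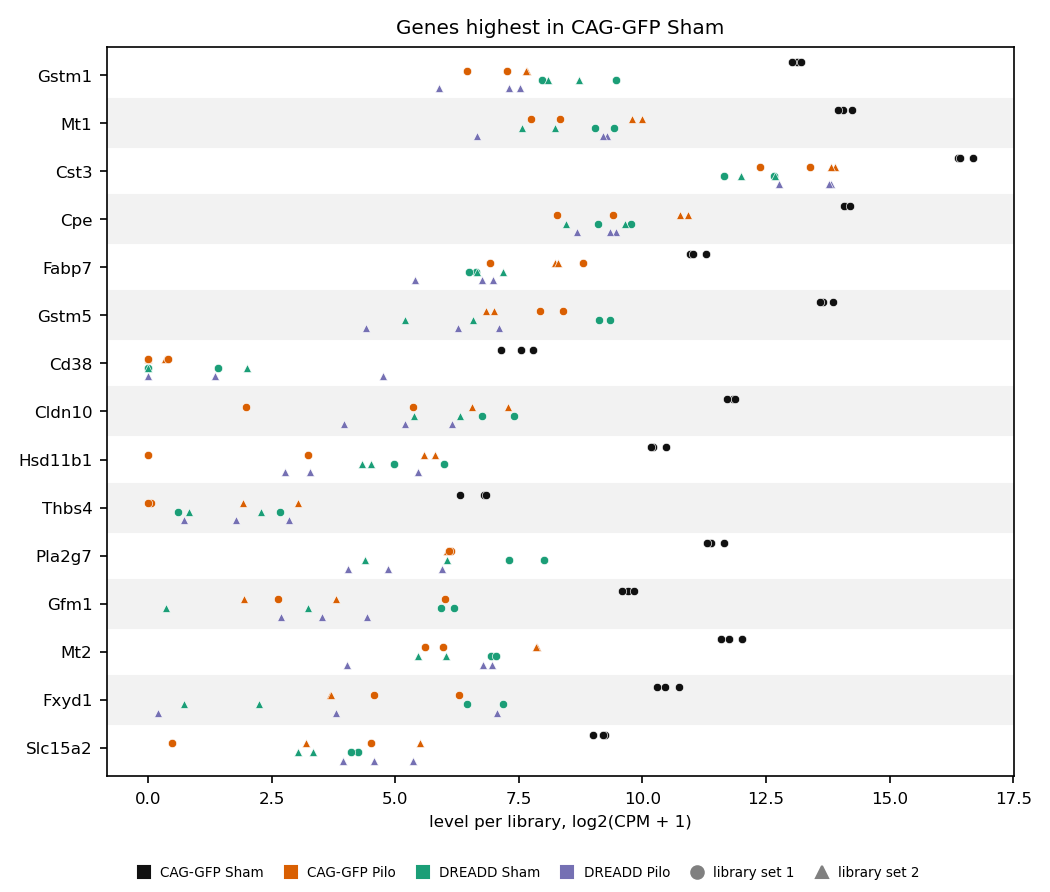
Level per library, as log2(CPM + 1), of the 5 marking genes and the genes with the largest fold in the control. Black points are the 3 CAG-GFP Sham libraries, colours the other groups, circles library set 1 and triangles set 2, and in each row all black points lie to the right of every other point.

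Several genes that bind metals or conjugate glutathione were among those with the largest folds in the control. Gstm5 (chromosome 3), another glutathione transferase of the mu class, had the largest fold among genes at 100 CPM or more in the control. It stood at 12906, 12338 and 14879 CPM, against 20.1 to 647 CPM in the others (median 127), a 61.8-fold difference that was 30.1-fold within set 1. Mt2 stood at 3422, 3088 and 4114 CPM against 15.3 to 231 CPM (33.2-fold), and Mt3, the metallothionein most abundant in brain, at 4736, 4500 and 5776 CPM against 12 to 589 CPM (25.6-fold). Of the 21 tested genes on the metallothionein and glutathione transferase list, 12 lay wholly above the rest and none wholly below, with a median log2 difference of 2.22 against -0.69 over all genes tested. With total counts as the scale 9 lay wholly above and 2 wholly below. The summed level of the list was 47980 to 57450 CPM in the control and 1141 to 4210 CPM in the others. Not all members took part. Gss, glutathione synthetase, stood at 0.352 of the rest's mean with overlapping arms, and Gpx1, a glutathione peroxidase, at 0.501 (0.957 within set 1). Mt1, Mt2 and Mt3, and likewise Gstm1 and Gstm5, are related genes of the same family. Some reads may be split unevenly between them, so each may be uncertain as a separate gene, and how far was not tested.

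The 3 metallothionein genes lie next to each other on chromosome 8 and were high together. The 250 bases before the RefSeq start of each are therefore shown, on GRCm38.p6, plus strand. Capitals mark the core of the metal response element, the site of the zinc-sensing factor MTF-1, searched as TGCACNC or TGCGCNC on both strands. The windows are chr8:94178839-94179088 for Mt1, chr8:94172368-94172617 for Mt2 and chr8:94152357-94152606 for Mt3.
Mt1: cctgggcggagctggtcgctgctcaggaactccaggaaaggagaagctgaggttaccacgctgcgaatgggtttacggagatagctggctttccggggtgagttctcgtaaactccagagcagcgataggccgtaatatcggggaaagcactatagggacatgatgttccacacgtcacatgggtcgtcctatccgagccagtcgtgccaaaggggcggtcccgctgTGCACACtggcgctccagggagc
Mt2: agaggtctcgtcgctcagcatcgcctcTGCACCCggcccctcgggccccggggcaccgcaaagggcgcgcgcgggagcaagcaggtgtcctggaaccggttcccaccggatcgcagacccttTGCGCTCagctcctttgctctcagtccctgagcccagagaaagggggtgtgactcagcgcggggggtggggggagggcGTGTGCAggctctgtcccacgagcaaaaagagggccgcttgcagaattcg
Mt3: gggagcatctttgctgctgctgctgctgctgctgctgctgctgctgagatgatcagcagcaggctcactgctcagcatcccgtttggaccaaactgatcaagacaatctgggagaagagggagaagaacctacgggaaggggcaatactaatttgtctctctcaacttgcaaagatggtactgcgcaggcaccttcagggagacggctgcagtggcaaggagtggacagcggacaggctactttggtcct
The core matched 3 times before Mt2, 1 time before Mt1 and 0 times before Mt3 in these windows. The windows sit differently against the annotated gene starts, 94179082 for Mt1 and 94172664 for Mt2. Bases beyond the windows were not searched, so these counts do not compare the whole promoters of the 3 genes. At least 1 match was present in 21.4% of 32851 windows of the same length and at least 3 in 1.26%. A match of 7 letters is a description and does not show that a factor binds.

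Astrocyte markers stood together above the rest. Of 16 tested markers, 15 lay wholly above the other libraries, where the background is 7.13%, and all 16 did so within set 1. The median log2 difference over the list was 3.48 (4.27 within set 1). The summed level of the list ran from 33180 to 34730 CPM in the control, and elsewhere from 1007 CPM in CAG-GFP Pilo 3 to 7555 CPM in CAG-GFP Pilo 1. In bulk libraries like these, more cells of a type and more RNA per cell cannot be told apart.

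The uptake machinery was among the highest. Slc1a2, the main astrocytic glutamate transporter, stood at 8065, 8274 and 8349 CPM against 174 to 1884 CPM (median 558), a 12-fold difference and 28.2-fold within set 1. Slc1a3, its partner in stem cells and astrocytes, stood at 4691, 4480 and 4920 CPM against 72 to 1220 CPM (11.2-fold, 25-fold within set 1). Gja1, the gap junction protein connexin 43, stood at 2010, 2094 and 2003 CPM against 0.392 CPM in CAG-GFP Pilo 4 and 455 CPM in DREADD Sham 3, with a median of 109 (12.7-fold, and 35.7-fold within set 1). Aqp4, the water channel of astrocyte end-feet, stood at 1169, 1121 and 1178 CPM against 0 to 229 CPM (11.5-fold, 25.7-fold within set 1). On the list of glutamate and potassium uptake, 12 of 16 genes lay wholly above the rest and all 16 had a positive log2 difference, as 34.3% of all genes did.

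Aldh1l1, an enzyme of folate metabolism widely used to mark astrocytes, stood at 206, 260 and 293 CPM against 0 to 45.5 CPM (15.3-fold). Glul, glutamine synthetase, stood at 971, 1063 and 1048 CPM against 74.4 to 227 CPM (6.6-fold). The exception was Gfap, the intermediate filament that marks reactive astrocytes. It stood at 709, 589 and 699 CPM in the control, and CAG-GFP Pilo 1 (974 CPM), CAG-GFP Pilo 2 (719 CPM) and DREADD Pilo 2 (751 CPM) lay above all 3, so the arms overlapped. Gpr37l1, an astrocytic receptor, had a small gap, with 756 to 815 CPM in the control and up to 614 CPM in DREADD Pilo 1.

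Other genes with the largest folds have varied roles. Cldn10, a claudin, stood at 3657, 3356 and 3741 CPM against 2.93 to 169 CPM (48.9-fold). Hsd11b1, which regenerates active glucocorticoid, stood at 1422, 1193 and 1152 CPM against 0 to 62.7 CPM (45.8-fold). Thbs4, a secreted thrombospondin, stood at 78.3, 111 and 113 CPM against 0 to 7.14 CPM (37-fold, 67.4-fold within set 1). Gfm1, a mitochondrial elongation factor, stood at 832, 772 and 906 CPM against 0.291 to 72.3 CPM, and its 35.3-fold difference was 16.8-fold within set 1. Fxyd1, a regulator of the sodium pump, differed 31.6-fold (17.6-fold within set 1) and Slc15a2, a peptide transporter, 30.9-fold. The fold of Cd38, an enzyme that consumes NAD, rested on 1 library of the rest. Cd38 stood at 219, 185 and 139 CPM in the control, at 26.1 CPM in DREADD Pilo 2 and at 3.03 CPM or less in the other 10, where 0.682 CPM was the mean without that library in place of 2.99 CPM. Within set 1, which lacks that library, the fold was 367 in place of 60.4.

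Lipid carriers and enzymes that activate fatty acids formed a further group, with 10 of 18 wholly above the rest and a median log2 difference of 2.41. Pla2g7, a secreted phospholipase, stood at 2659, 3211 and 2525 CPM against 15.4 to 257 CPM (35.5-fold, 20.4-fold within set 1). Fabp5, a fatty acid binding protein, stood at 2278, 2478 and 2699 CPM against 10.9 to 340 CPM (21.7-fold), and within set 1 the fold was 9.72. Clu, which encodes the extracellular chaperone clusterin, stood at 17284, 18073 and 16578 CPM against 176 to 1996 CPM (21.5-fold). Dbi, the acyl-CoA binding protein, differed 14.1-fold, Acsbg1, an acyl-CoA synthetase, 13.9-fold, Acsl3, another one, 12.6-fold, and Prdx6, a peroxidase for phospholipids, 7.03-fold. Apoe, the main lipid carrier of brain, did not belong here. Its control libraries disagreed, at 20763, 9951 and 9588 CPM, and overlapped the 1335 to 21222 CPM of the rest.

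Secreted proteases and their inhibitors, the group of Cst3, were split, with 6 of 20 wholly above the rest and none below. Their median log2 difference was 0.24, and with total counts as the scale the median of log2 ratios was -0.35. Htra1, a secreted serine protease of astrocytes, stood at 1731, 1785 and 1929 CPM against 0.336 to 276 CPM (25.3-fold, 46-fold within set 1).

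Per kilobase of exon, a scale on which genes can be compared, the highest protein-coding nuclear gene of the control was Cst3 at 73420 CPM per kilobase, followed by Mt1 at 13980 and Gstm5 at 10460. Mt1 was 60th and Gstm5 189th by the same measure in the rest, while Cst3 was 2nd. Of the 10 highest control genes 9 lay wholly above the rest, Apoe being the exception, and of the 30 highest 23 did.

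Genes of radial glia-like stem cells were mixed. Of 18 tested, 12 were positive and 6 negative, with a median log2 difference of 0.97, and 7 lay wholly above and 1 wholly below. Within set 1, 16 were positive, 13 lay wholly above and 1 wholly below. Lpar1, a receptor gene of this list, stood at 0.199, 3.11 and 0.21 CPM in the control. It stood at 0 in CAG-GFP Pilo 4 and at 4.12 to 160 CPM in the other 10. Hopx, a quiescence marker that astrocytes also express, stood at 1456, 1480 and 1524 CPM against 8.95 to 451 CPM (8.66-fold, 19.4-fold within set 1). Id2 and Id4, inhibitors of neurogenic transcription factors, stood at 3048 to 3570 CPM against 220 to 992 CPM (6.67-fold) and at 265 to 300 CPM against 6.26 to 106 CPM (6.43-fold), and within set 1 the folds were 10.58 and 22.3. Of the 19 Notch and Id genes 3 lay wholly above the rest and none below, with a median log2 difference of -0.46 against -0.69 over all genes. Within set 1, 7 lay wholly above and the median was 0.67 against -0.16. Their summed level was 4.38-fold that of the rest (8.18-fold within set 1), above all 11 others.

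**Figure D2:**
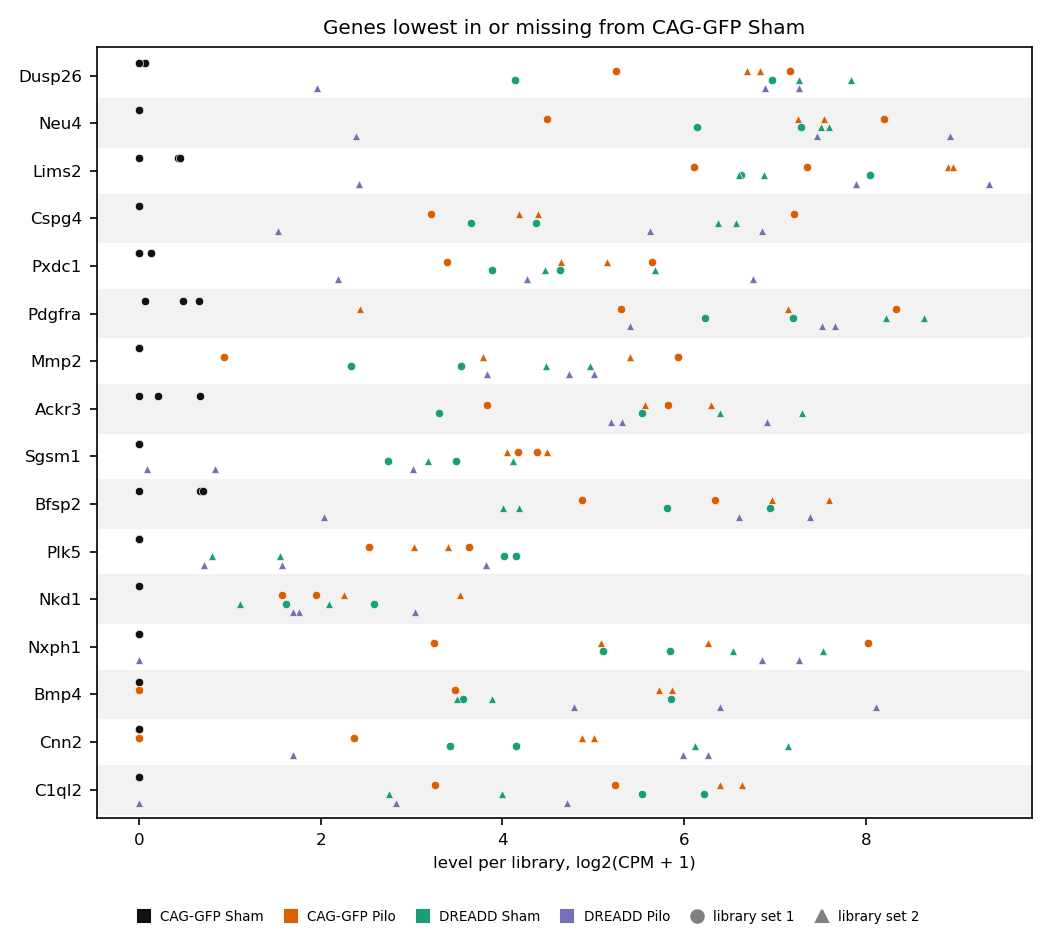
Level per library, as log2(CPM + 1), of genes lowest in or without counts in the control, with the same symbols for groups and library sets. The black points of CAG-GFP Sham lie at or near 0 in every row, and some single libraries of the rest, such as DREADD Pilo 3 for Nxph1 and C1ql2, also lie at 0.

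Genes of oligodendrocyte precursors were nearly missing from the control. These cells make myelinating oligodendrocytes and divide in the adult brain. Neu4, a sialidase of this lineage, had 0 counts in all 3 control libraries and stood at 4.23 to 484 CPM in the other 11 (median 175), at least 3445-fold higher when the control is set to 3 counts over the group. Cspg4, the proteoglycan NG2 of precursors and pericytes, had 0 counts against 1.89 to 147 CPM (at least 1016-fold). Pdgfra, the growth factor receptor that defines precursors, stood at 0.398, 0.0494 and 0.576 CPM against 4.41 to 397 CPM (median 145), a 491-fold difference in mean CPM. Over pooled counts, with 20 in the control, the ratio was 540 with a 95% counting interval of 350 to 884. Sox10, the lineage's transcription factor, had 5 counts over the control and stood at 0 in DREADD Pilo 3 and at 11.5 to 188 CPM in the remaining 10. Bmp4, a secreted factor of committed precursors, had 0 counts against up to 275 CPM in DREADD Pilo 1, and it was at 0 in CAG-GFP Pilo 4 as well (at least 1074-fold, and at least 386-fold within set 1).

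All 10 precursor markers had negative log2 differences, with 3 wholly below the rest where the background is 1.49%. Their summed level was 33.8 to 60 CPM in the control and 74.5 CPM (DREADD Pilo 3) to 2141 CPM (DREADD Pilo 1) elsewhere, so all 11 other libraries lay above. Markers of mature oligodendrocytes behaved alike, with all 13 negative and 3 wholly below. Mbp, the myelin basic protein, stood at 60.8, 47.7 and 59.5 CPM against 156 to 19785 CPM (median 6712). Ermn, a cytoskeletal protein of myelinating cells, stood at 14.7 to 15.8 CPM against 25.1 to 2071 CPM. The summed level was 704 to 783 CPM in the control, and 10 of the 11 others lay above it, from 1585 CPM in CAG-GFP Pilo 3 upwards, with DREADD Pilo 3 below at 565 CPM. Within set 1, where fewer libraries need to be cleared, 10 of the 13 and 6 of the 10 precursor markers lay wholly below.

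Outside the marker lists of that lineage, the lowest genes included Dusp26, a phosphatase. It had 1 count in the control and 2.89 to 228 CPM in the rest (median 118). Whether the genes of this paragraph belong to the same lineage was not tested. The ratio of rest to control from pooled counts was 6158, with a 95% counting interval of 1105 to 243250. Lims2, an adaptor of focal adhesions, stood at 0, 0.345 and 0.367 CPM against 4.34 to 656 CPM (1025-fold in mean CPM, 623-fold within set 1). From its 14 control counts the pooled ratio was 862, with an interval of 514 to 1577. Ackr3, a scavenger receptor of the chemokine CXCL12, stood at 0, 0.592 and 0.157 CPM against 8.88 to 156 CPM (247-fold, 123-fold within set 1), and its pooled ratio from 15 control counts was 212, with an interval of 129 to 379. Mmp2, a matrix metalloproteinase, had 0 counts against 0.911 to 60 CPM (at least 453-fold). Bfsp2, a filament protein best known from the lens, stood at 0 to 0.629 CPM against 3.12 to 191 CPM (201-fold), with a pooled ratio from 24 control counts of 186 and an interval of 125 to 290. Pxdc1 had 2 counts in the control, a ratio of 973 with an interval of 269 to 8039, and Sgsm1, a regulator of small GTPases, had 0 against 0.06 to 21.5 CPM. Nxph1, a ligand of neurexins, Cnn2, an actin-binding calponin, and Nkd1, an inhibitor of Wnt signalling, also had 0 counts. Of these only Nkd1 was present in all 11 others, at 1.17 CPM or more.

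Genes without any count in the control were far more numerous than in any other group. Among genes at 5 CPM or more on average elsewhere, 728 had 0 counts in all 3 control libraries, where the same rule found 33 in DREADD Sham, 21 in DREADD Pilo and 13 in CAG-GFP Pilo. Of the 728, 447 are annotated as pseudogenes and 242 as protein coding. The pseudogene share moved with the library sets. Against the 4 others of set 1 alone 155 genes met the rule, with 126 protein coding and 6 pseudogenes. The control is the only group wholly of set 1, and every other group holds libraries of set 2, so the counts by group are not like for like. A count within set 1 was not made for the other groups. The 2 genes present at 1 CPM or more in all 11 others were Neu4 and Cspg4, and 12 were so in at least 10. A count of 0 over the control allows up to 0.0505 CPM, for counting error only. In the other direction, 38 genes reached 1 CPM in the control without a count in any of the 11 others and 3 reached 5 CPM.

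The labelled cell type was checked by its own markers. Prox1 stood at 12.7, 5.63 and 14.6 CPM in the control, and at 0 in CAG-GFP Pilo 4 and DREADD Pilo 3 and 30.8 to 238 CPM in the other 9. Dcx stood at 0, 6.56 and 1.68 CPM against 0 to 271 CPM (median 30.8), and Neurod1 at 0.796, 0.938 and 0.576 CPM against 0 to 283 CPM (median 63). C1ql2, a secreted synaptic protein of granule cells, and Plk5, a kinase gene of the same neurons, had 0 counts in the control, against 0 to 98.1 and 0.646 to 16.7 CPM. C1ql3, a relative of C1ql2, lay wholly below the rest, at 1.83 to 4.44 CPM against 5.01 to 123 CPM. Of 17 tested markers of mature granule cells 15 had negative log2 differences and 2 lay wholly below the rest, and of 17 neuroblast markers 15 were negative and none lay wholly apart from all 11 others. Summed granule cell markers were 780 to 1136 CPM in the control, with 6 other libraries above and 4 below, the 4 being of set 2. The 4 others of set 1, at 1822 to 5911 CPM, all lay above the control, whose sum was 0.302 of theirs (0.54 of all 11). Within set 1 the 17 granule markers were all negative and 8 lay wholly below, and of the 17 neuroblast markers 16 were negative and 10 lay wholly below, where the background is 8.18%.

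**Figure D3:**
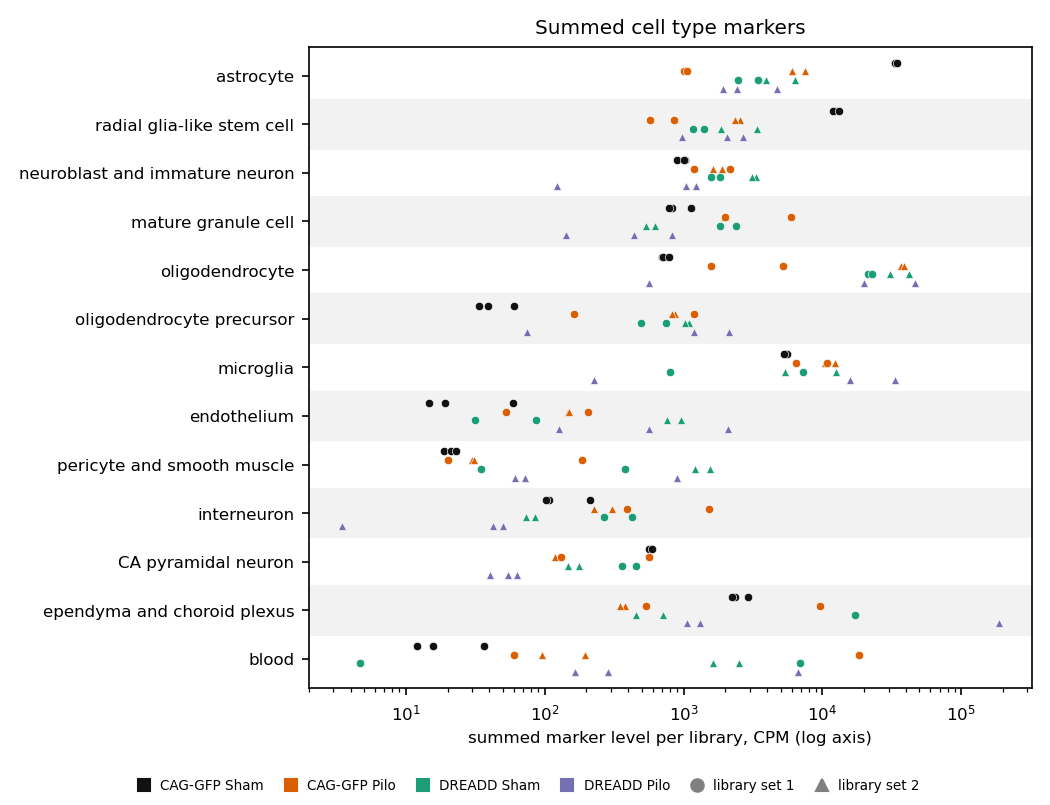
Summed level of each cell type's marker list per library in CPM, on a log axis, with black points for CAG-GFP Sham, colours for the other groups, circles for library set 1 and triangles for set 2. The black points are the highest for astrocyte and radial glia-like lists and, by a small gap, for CA pyramidal neurons. They are the lowest for oligodendrocyte precursors, and they fall within the others for microglia and mature granule cells.

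Markers of other cell types that a sort could hold were measured beside these results, and their part in them was not tested. Summed microglial markers stood at 5301 to 5589 CPM in the control, within 227 to 33160 CPM of the rest, and none of 14 lay wholly apart. Cx3cr1, the fractalkine receptor of microglia, stood at 12.3, 26.5 and 30.4 CPM against 2 to 682 CPM. All 13 endothelial and all 10 pericyte markers had negative log2 differences, with 6 and 4 at 0 counts in the control, and 0 and 1 wholly below. Summed levels of 14.6 to 59.6 and 18.9 to 23.2 CPM overlapped the rest, at 31.7 to 2077 and 20.2 to 1555 CPM. The low ends were DREADD Sham 2 for endothelium and CAG-GFP Pilo 3 for pericytes. Within set 1, 2 markers of each list were positive, and 1 pericyte marker lay wholly above and 1 wholly below. Of 9 blood markers 5 had no count, and their sum was 12 to 36.8 CPM in the control against 4.67 CPM (DREADD Sham 2) to 18350 CPM. Of 7 tested interneuron markers none lay wholly apart, and their list summed to 103 to 210 CPM against 3.45 to 1536 CPM. Summed markers of CA pyramidal neurons were 565 to 594 CPM in the control, above all 11 others (40.3 to 561 CPM) on the TMM scale. The members were split, with 7 positive, 4 negative and 2 wholly above. Within set 1, 4 of the 11 were positive, 3 lay wholly above and 2 wholly below. Their median of log2 ratios there was -0.06, against -0.16 over all genes. With total counts as the scale the median against all 11 others was 0.04. Spink8, a protease inhibitor gene of those neurons, stood at 150, 129 and 136 CPM against 0 in 7 libraries and up to 49.6 CPM in CAG-GFP Pilo 3. Single libraries set the upper ends elsewhere, with 187500 CPM of ependymal and choroid plexus markers in DREADD Pilo 3 and 18350 CPM of blood markers in CAG-GFP Pilo 4.

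Housekeeping groups also differed in level. Of 30 genes of cytosolic ribosomal proteins, 25 lay wholly above the rest and all 30 were positive, with a median log2 difference of 2.37. Rpl23, of the large subunit, stood at 370, 350 and 489 CPM against 12.3 to 154 CPM (7.69-fold), and Rps4x, of the small subunit, at 624, 612 and 623 CPM against 1.11 to 293 CPM (7.89-fold). These folds moved with the library sets, to 3.8 and 3.02 within set 1, where the list's median was 1.18, and with total counts as the scale 8 of the 30 lay wholly above. Nuclear genes of oxidative phosphorylation showed 18 of 32 above, and Atp5o, a subunit of ATP synthase, differed 12.7-fold (5.29-fold within set 1). Genes encoded by the mitochondrial genome took 11.6% to 12.7% of control counts against 12.7% and 13.9% in CAG-GFP Pilo 1 and 2, 25.8% in DREADD Pilo 3 and 2.05% to 4.9% in the other 8. Of 12 tested, 0 lay wholly apart, and within set 1, which lacks those 3 libraries, 11 lay wholly above. mt-Co1, a subunit of cytochrome oxidase, stood at 38378 to 39753 CPM in the control, at 40681 CPM in DREADD Pilo 3 and at 2402 to 10312 CPM in the other 10.

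Cholesterol synthesis genes lay wholly above in 9 of 21 cases (3 with total counts as the scale), among them Fdft1, squalene synthase, at 354, 386 and 329 CPM against 43.2 to 143 CPM (4.93-fold, 3.18-fold within set 1). Heat shock genes split, with 1 of 16 wholly above and 2 wholly below, both here and within set 1. The shares over all genes were 7.13% above and 1.49% below, and 14% and 8.18% within set 1, so little is read from these counts. Hspe1, a mitochondrial chaperonin, stood at 606, 580 and 741 CPM against 12.4 to 153 CPM (7.08-fold), while the inducible chaperones Hspa1a and Hspa1b, near-identical copies, stood at 3.03 to 9.95 CPM against 27.2 to 792 CPM and at 5.76 to 9.99 CPM against 32.2 to 1104 CPM. The immediate early gene Junb stood at 260, 74.4 and 66.6 CPM against 248 to 1614 CPM, with CAG-GFP Sham 1 reaching into the rest. Of 20 immediate early genes 5 were positive, where 34.3% of all genes were, and none lay wholly apart. Within set 1, 10 were positive, 3 lay wholly above and 3 wholly below. Over all genes there, 8694 of 18676 were positive, 14% lay wholly above and 8.18% wholly below. Synaptic vesicle genes were negative in 22 of 23 cases with 1 wholly below, and within set 1 all 23 were negative and 10 lay wholly below. The 1 was Vamp2, a vesicle SNARE, at 16.2 to 23.7 CPM against 24.7 to 133 CPM. Mitosis genes were negative in 21 of 22 cases with none wholly apart, and 4 had no count in the control. Over all genes 34.3% were positive. Within set 1, 5 of the 22 were positive and 1 lay wholly below, where 8.18% of all genes did. The median of log2 ratios of the mitosis list there was -3.03, against -0.16 over all genes. Its summed level was 35.04 to 51.11 CPM in the control. DREADD Sham 1 lay within that range at 48.52 CPM and DREADD Sham 2 below it at 31.16 CPM. CAG-GFP Pilo 3 and 4 lay above it, at 190.9 and 99.55 CPM. Of 22 DNA replication genes 16 were negative and 6 positive. Only 1, Mcm6, a helicase subunit, lay wholly below the rest, where 1.49% of all genes did, at 2.04, 0 and 0 CPM against 7.92 to 46.3 CPM. Within set 1, 7 were positive, 2 lay wholly above and 1 wholly below. The summed level of the list was 0.816 of that of all 11 others and 0.842 of that within set 1.

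**Figure D4:**
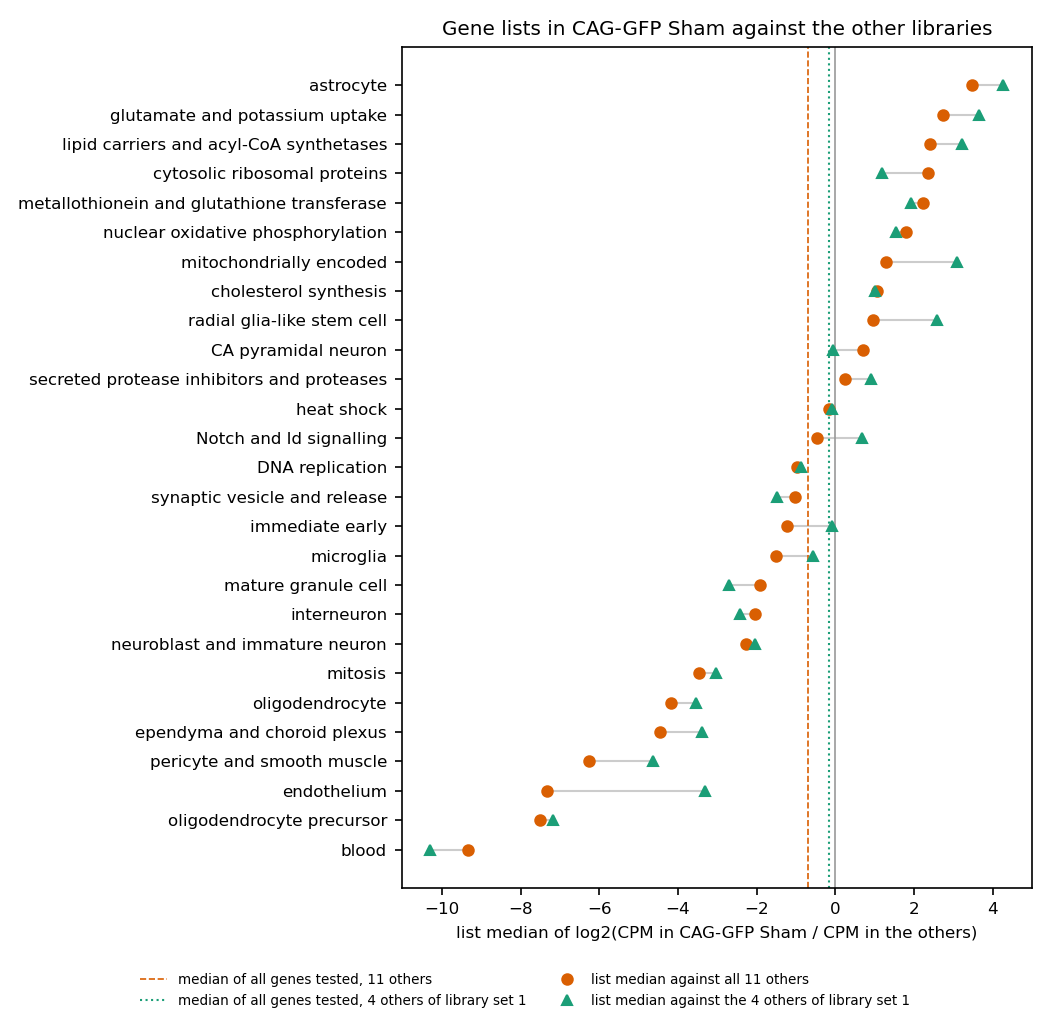
Median over each list of the log2 ratio of mean CPM in CAG-GFP Sham to that of the other libraries, for all 11 others (circles) and the 4 others of library set 1 (triangles), with genes at 0 counts in an arm set to 3 counts over it. Astrocyte, uptake and lipid lists lie to the right and blood, vascular and oligodendrocyte lineage lists to the left of the lines at -0.69 and -0.16, the medians of all genes tested.

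The control libraries also resembled each other more than those of any other group. Over 1905 genes at 100 CPM or more, their median coefficient of variation was 13.6%, against 49.7% to 56.9% in the other groups, and 10 genes (0.525%) varied by over 50% where 49.7% to 57.4% of genes did so elsewhere. Correlations of log2 levels across genes between pairs of control libraries were 0.91 to 0.915, against 0.557 to 0.847 in the other groups. The 3 control libraries are all of set 1, while CAG-GFP Pilo and DREADD Sham each mix 2 libraries of either set, so part of their spread moves with the sets. For pairs of 1 group and 1 set the correlations outside the control were 0.651 to 0.847, the highest being DREADD Sham 1 with 2, of set 1.

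Among the 3 other groups, no gene passed. edgeR's quasi-likelihood F-test over these 11 libraries, with the control left out, called 0 of 17982 genes at an adjusted p under 0.05 (0%), and 332 (1.85%) had an unadjusted p under 0.05. DESeq2 called 5, with 676 at an unadjusted p under 0.05. Of the 5 marking genes, Gstm1 and Fabp7 were among the 332, and each had an edgeR adjusted p = 0.9999, as did Mt1, Cst3 and Cpe. Gstm1 had a mean of 411 ± 211 CPM (SD, n = 4) for DREADD Sham, 160 ± 54.5 CPM (SD, n = 4) for CAG-GFP Pilo and 133 ± 65.5 CPM (SD, n = 3) for DREADD Pilo. Fabp7 had means of 108 ± 24.3, 293 ± 132 and 90.8 ± 43.9 CPM in the same order. Hspa1b, at 56 ± 25.6, 240 ± 114 and 558 ± 490 CPM, had the lowest unadjusted p among the genes described here and did not pass after adjustment (edgeR adjusted p = 0.9999). Of the 16 astrocyte markers none had an unadjusted p under 0.05. The biological coefficient of variation was 1.54 in this fit. In simulated data of this design the test recovered 0% of 200 genes changed 8-fold and 20% of those changed 64-fold, so the lack of calls does not show that the 3 groups had equal levels.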

How the data were processed

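RNA from sorted GFP+ cells was measured in 14 libraries. The deposited values are raw read counts per gene in 1 table, and per the submitters' processing notes the authors used Bowtie2, featureCounts of Subread, and R 4.1.1 with edgeR. Those notes name the human build hg38, although the identifiers are mouse genes, so the build was not settled. Strand setting is not given in the sources used here, and genes with overlapping or antisense partners may share reads. Of 43346 identifiers 42462 (98%) matched mouse GRCm38 annotation, which gave symbols, coordinates and exon lengths. All columns were mapped to samples by their names (0 left unmapped).

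Counts were scaled with TMM in edgeR 4.0.16 (R 4.3.3, limma 3.58.1), filtered with filterByExpr, and fitted with the quasi-likelihood model and Benjamini-Hochberg adjustment at 0.05, as 2 arms for description and as an F-test among the 3 other groups. DESeq2 1.42.0 was an alternative, with other scalings, no filter, library set or replicate number as a term, the control summed, set 1 alone, and each library left out. Total counts as a scale, and overlap counts under each setting, were added after seeing the data. Both fits were tested on simulated data: of 200 genes changed 8-fold (64-fold) 6% (44%) were recovered between the arms, on 17507 (17488) genes. Library totals of 10613291 to 38614639 set the precision, and intervals and limits (95%, or 3 counts for a count of 0) cover counting error only, since reads carried no molecular identifiers.

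The split, the members and all gene lists were chosen with earlier results of these data known. Genes named are the 5 markers, the 12 with the largest fold each way among those wholly apart (at 100 CPM or more in the control, or 5 CPM or more in the rest), 8 without a count in the control, and up to 4 of each list. Gss, Gpx1, Gfap, Prdx6, Prox1, Mt3, C1ql3, Gpr37l1, Acsl3, Hopx, Apoe and Glul were chosen after their values were seen. A gene that the rule would name is not reported here. Promoter sequences are RefSeq's, on GRCm38.p6.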

Additional observations from a re-analysis of the deposited data

Results flagged for a closer look

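In 16 of 220 groups of 4 libraries (7.27%), 1 library stood far from its 3 companions. The cut-off is set for 1 in 20 with independent, normally spread values. These CPM values share genes and libraries and mix library sets, so the share is not compared with chance. All 16 lie outside the control, whose 3 libraries are too few for this check, and the causes were not tested. CAG-GFP Pilo 3 accounted for 8 of these. It held 62.85 CPM of Gfm1, 49.6 CPM of Spink8 and 68.12 CPM of Cx3cr1, where the group medians were 9.06, 0.598 and 390 CPM. Its summed markers were 5911 CPM for mature granule cells, 1536 CPM for interneurons, 560.9 CPM for CA pyramidal neurons, 9675 CPM for ependyma and choroid plexus, and 8055 CPM for synaptic vesicles. Library 4 of that group held 146.8 CPM of Cspg4, 185.8 CPM of pericyte markers and 18350 CPM of blood markers. Its library 1 held 207.8 CPM of Hspa1a. In DREADD Sham, library 2 held 263.9 CPM of Lims2 and 56.97 CPM of Bmp4, library 3 held 455.5 CPM of Gja1, and library 4 held 825.1 CPM of mitosis genes.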

How the results depend on the processing

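For 81 genes followed by name, 1863 log2 differences under 23 alternatives kept their direction, and 0 reversed. The members were chosen on these values, so this is no sign of stability. The count called higher in the control, 311, was 76 with total counts as the scale, 749 with DESeq2, 175 with library set as a covariate, 648 in set 1 alone and 15 with the control summed to 1 sample, where the other libraries alone give the spread. The count called lower, 76, was 2737 with DESeq2, 50 without the low-count filter, 43 with the covariate, 211 in set 1 alone and 0 with the control summed. With 1 library left out the counts were 87 to 557 higher and 11 to 264 lower. Genes wholly above, 1332, were 687 with total counts, 2612 in set 1 alone and 1357 to 1573 with 1 library left out. Genes wholly below, 279, were 608, 1527 and 286 to 516. The cause was not tested, apart from fewer libraries to clear in the last 2 settings.

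With the replicate number as a replicate block the calls were 117 higher and 16 lower. Libraries with the same number had correlations of -0.42 to 0.14 over 19 pairs, and 1 of 14 libraries correlated best with its own number, so the numbers were not taken to pair the samples. These values are on another scale than the correlations of log2 levels above, where every other library averaged 0.556 or more with the control. Among the 3 other groups edgeR called 0 genes under every alternative and DESeq2 called 5. Genes at a few counts in the control, such as Dusp26, are limited by depth.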
